A study of Mus musculus with 12 samples.

Results

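The genes described here make up the extracellular matrix and the contractile and signalling equipment of stromal cells, as they were measured in 3 mouse lymphoid populations. They were chosen by name: 35 genes were listed, and every Illumina bead array probe annotated to one of them was taken from the table of unnormalized signals and detection values. The platform annotation gave a probe to 34 of the 35, with 82 probes in all, out of 19057 genes with at least 1 probe. Fbn1 (fibrillin) was the gene without an annotated probe, and its expression was not analysed here.

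The study compared ITNK cells, natural-killer-like cells that arise in vitro from DN3 thymocytes after deletion of the transcription factor Bcl11b, with DN3 cells as their parental T cell precursors and with LAK cells, natural killer cells expanded with IL-2. Each group had 4 arrays. The protocol text is shared by all 12 samples. In it, thymocytes or splenocytes that carried Cre-ERT2 and floxed alleles of Bcl11b spent 48 h in 1 µM 4-hydroxytamoxifen. DN3 cells sorted by flow cytometry (genotypes written as Bcl11bCKO/CKO and Bcl11bCKO/+) were then grown with 100 ng/ml human IL-2 on OP9-DL1. These are stromal cells of bone marrow origin engineered to display the Notch ligand Delta-like 1. The T cell medium is listed with Flt3 ligand and IL-7. At intervals of 3 days the cells were pipetted off, passed through a strainer and moved to fresh stroma, and RNA was taken 14 days after the treatment. The text also mentions splenic ITNK cells expanded in IL-2, a source that no sample title names. It does not say which steps were applied to DN3 and LAK cells, which genotype each sample had, what drives the Cre, or whether stromal cells were depleted before lysis. The labels give neither age nor sex of the mice. The strain labels read C57B6 (ITNK), C57B7 (DN3) and C57B8 (LAK) and were not used. Whether the 4 samples of a population are separate mice, cultures or repeat preparations is not stated. The p-values rest on the variation among them, which could be technical.

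Stromal cells build the matrix that holds a tissue together. Fibrillar collagens form its cables, collagen IV its basement membranes and collagen VI a beaded network around cells, while small leucine-rich proteoglycans such as biglycan and PRELP coat the fibrils. Metalloproteinases cut the matrix and TIMP proteins inhibit them. In bone marrow and thymus, stromal cells also guide lymphocytes through the chemokine CXCL12, the adhesion molecule VCAM1 and Notch ligands. Lymphocytes themselves make little collagen.

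The promoters of 4 members stand for the kinds of behaviour seen below. Cxcl12 and Col6a1 fell in ITNK and stayed detectable, Prelp fell below detection, and Timp3 rose. Each is given from 250 bases before to 50 bases after the RefSeq start (build GRCm38.p6), 5′ to 3′ on the gene's strand, with capitals on any motif match on either strand. The motifs searched were the TATA box, spelled TATAAA, the CCAAT box, spelled CCAAT, the GC box, spelled GGGCGG, the AP-1 site, spelled TGANTCA, the E-box, spelled CACGTG, and the CArG box.
Cxcl12 (chr6:117168285-117168584, plus strand): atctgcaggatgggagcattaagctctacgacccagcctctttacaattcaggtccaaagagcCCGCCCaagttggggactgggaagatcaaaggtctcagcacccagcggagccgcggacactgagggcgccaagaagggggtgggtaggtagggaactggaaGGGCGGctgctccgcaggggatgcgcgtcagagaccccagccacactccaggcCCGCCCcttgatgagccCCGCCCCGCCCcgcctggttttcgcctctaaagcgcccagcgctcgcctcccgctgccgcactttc
Col6a1 (chr10:76725995-76726294, minus strand): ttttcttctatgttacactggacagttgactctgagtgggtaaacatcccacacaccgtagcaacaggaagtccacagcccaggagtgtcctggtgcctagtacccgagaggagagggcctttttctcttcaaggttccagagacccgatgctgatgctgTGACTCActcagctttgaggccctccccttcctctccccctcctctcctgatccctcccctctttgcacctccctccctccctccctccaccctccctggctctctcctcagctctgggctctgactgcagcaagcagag
Prelp (chr1:133921352-133921651, minus strand): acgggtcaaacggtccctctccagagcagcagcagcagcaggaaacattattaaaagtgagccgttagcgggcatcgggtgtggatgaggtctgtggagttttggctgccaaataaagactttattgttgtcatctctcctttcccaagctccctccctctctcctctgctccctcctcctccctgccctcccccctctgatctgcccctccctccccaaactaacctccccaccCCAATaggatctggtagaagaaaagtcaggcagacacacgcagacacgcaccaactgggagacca
Timp3 (chr10:86300162-86300461, plus strand): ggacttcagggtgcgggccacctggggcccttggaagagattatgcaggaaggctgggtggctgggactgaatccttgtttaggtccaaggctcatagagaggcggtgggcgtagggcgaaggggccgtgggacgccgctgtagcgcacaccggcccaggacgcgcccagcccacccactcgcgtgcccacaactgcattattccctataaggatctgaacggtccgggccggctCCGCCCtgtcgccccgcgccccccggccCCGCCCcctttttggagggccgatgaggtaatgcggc
The GC box was found in Cxcl12 and Timp3, overlapping itself in Cxcl12, the AP-1 motif in Col6a1 and the CCAAT motif in Prelp. Promoter sequences were at hand for 23 member genes, among them Fbn1, which has no probe. The GC box occurred in 15 of them and in 35.7% of all 32851 promoters of the same length, the CCAAT box in 8 (37.4% of all), the TATA box in 3 (13.6%), the AP-1 site in 3 (7.81%), the E-box in 0 (7.15%) and the CArG box in 0 (1.63%). A member gene was counted if any of its promoters matched, whereas each percentage counts single promoters, so the 2 measures are unlike. These matches describe the letters in the window and say nothing of factor binding.

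Detection separated the 3 populations. A probe counted as detected on an array when its detection p, the share of negative control beads brighter than the probe, was under 0.01. On all 4 arrays of a group, 18 member genes were detected in DN3, 12 in ITNK and 0 in LAK. On at least 1 array the numbers were 25, 20 and 3. Each LAK array detected 1 member gene, against 15 to 19 on ITNK arrays and 19 to 24 on DN3 arrays. The LAK detections were Col6a2 on 2 arrays and a secondary probe each of Cxcl12 and Acta2 on 1 array.

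Of the 34 genes with a probe, 9 were detected on no array: the collagen chains Col1a2, Col3a1 and Col5a2, the matrix proteins Lum, Postn and Thbs1, the smooth muscle proteins Tagln and Cald1, and the Notch ligand Dll1. Col1a1, which shares a trimer with Col1a2, was detected on all DN3 arrays. The single Dll1 probe gave 4.34 to 4.95 on DN3 arrays and 4.48 to 4.75 on ITNK arrays (log2), none of them a detection. A further 4 genes were detected on too few arrays to be tested. Pdgfrb, a receptor for platelet-derived growth factor, was detected on 3 DN3 arrays, Col4a2 on 2, and Tpm2 (tropomyosin) on 1 DN3 and 1 ITNK array. Dcn (the proteoglycan decorin) was detected on 1 array only, DN3 3.

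For the tests, signals were background-corrected and quantile normalized, and values below are on that log2 scale. Probes detected on at least 4 of the 12 arrays were fitted in 1 limma model with 3 groups, and p-values were adjusted by Benjamini-Hochberg over all 13571 such probes. This left 29 member probes for 21 genes, each gene represented by its probe of highest mean. Genes of lymphocytes were read on the same arrays. Coro1a, a leukocyte actin regulator, gave DN3 12.99 ± 0.07, ITNK 12.90 ± 0.13 and LAK 12.67 ± 0.31 (mean and SD, n = 4). The T cell receptor complex subunit Cd3d gave DN3 13.14 ± 0.05, ITNK 11.88 ± 0.22 and LAK 8.05 ± 0.51. Of 6 T lineage genes tested, Cd3d among them, 2 fell in ITNK against DN3 and 0 rose, beside 27.9% and 23.3% of all genes. The median difference of the 6 was -0.47. The arrays detected 11814 to 13141 of 45274 probes. Slides were inferred here from the number shared by the array codes in the sample titles. Median signals were 71.4 to 75.3 on slide 1, which held LAK 1 to 4 with ITNK 1 and 2. They were 58.9 to 63.3 on slide 2, which held DN3 1 to 4 with ITNK 3 and 4.

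In ITNK against DN3, 15 of the 21 tested member genes fell, Timp3, Ccn2 and Timp1 rose, and Mgp, Igfbp7 and Fstl1 did not pass. Over all 8100 tested genes 27.9% fell and 23.3% rose. The members' median difference was -1.41, beside -0.04 for all genes, and the single genes ran from -3.21 to 2.21. In bulk RNA, fewer cells of a type and less RNA per cell cannot be told apart. Prelp and Mmp2 met the detection filter through DN3 arrays alone and so had to be lower in ITNK. Their calls among the 15 are a description. With slide as a block 14 fell and 2 rose, and within slide 2, where ITNK has 2 arrays, 13 fell and 2 rose. The size depends on the background step: the median was -0.85 without it, with the same 15 and 3 calls. The model shares 1 estimate of spread per probe among the 3 groups. Over the 21 genes the median SD was 0.70 in DN3, 0.37 in ITNK and 0.08 in LAK. SEs and intervals for ITNK against DN3 therefore tend to understate the spread within those 2 groups. A fit of only these 2 groups kept the 15 and 3 calls.

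**Figure D1:**
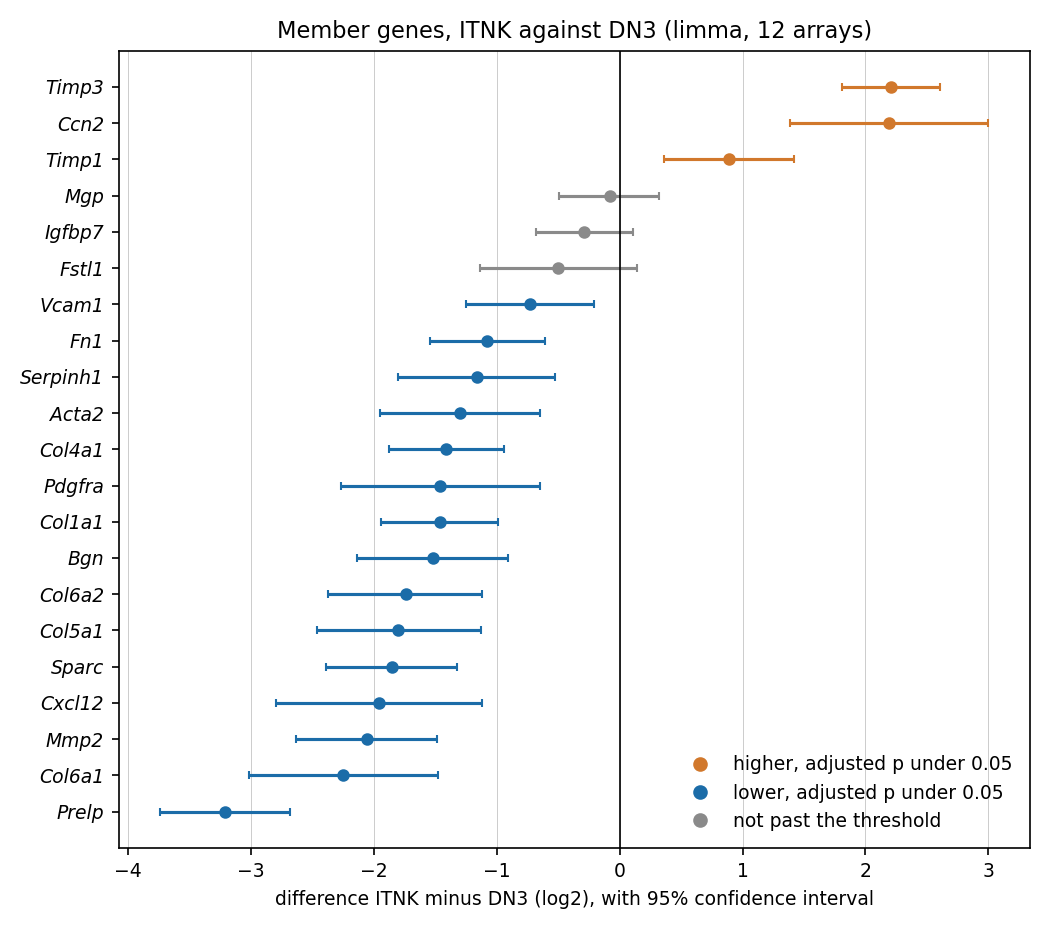
Log2 difference ITNK minus DN3 (horizontal axis) with its 95% confidence interval for the 21 tested member genes, from limma on 12 arrays. Blue genes fell, orange genes rose and grey genes did not pass at an adjusted p under 0.05. Prelp lies farthest left at -3.21 and Timp3 farthest right at 2.21.

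Among collagens, Col6a1, a chain of the beaded filament collagen VI, was at 10.41, 8.27, 8.53 and 9.80 on DN3 arrays 1 to 4, at 7.13, 7.03, 7.29 and 6.54 on ITNK arrays 1 to 4 and at 4.29 to 4.41 on LAK arrays. Every DN3 array was above every ITNK array, and LAK lay at background. In unnormalized signal this probe read 302.4 to 1168.9 in DN3, 139.2 to 205.1 in ITNK and 63.8 to 71.9 in LAK. It fell by 2.25 in ITNK (SE 0.36, adjusted p = 0.000131, limma), and a second probe fell by 1.95. Col6a2 read 8.19, 6.50, 7.09 and 7.37 on DN3 arrays, 6.03, 5.45, 5.71 and 4.99 on ITNK arrays and 4.99 to 5.53 on LAK arrays. This partner chain of Col6a1 fell by 1.74 in ITNK (SE 0.29), and its ITNK and LAK arrays overlapped. Col5a1 read 8.29, 6.63, 6.76 and 7.96 on DN3 arrays, 5.83, 5.46, 5.98 and 5.17 on ITNK arrays and 4.26 to 4.48 on LAK arrays. Col1a1 read 6.83, 5.57, 6.03 and 6.30 on DN3 arrays, 5.23, 4.41, 4.66 and 4.60 on ITNK arrays and 4.35 to 4.47 on LAK arrays. These chains of fibrillar collagens fell by 1.80 and 1.46 (SE 0.31 and 0.22), and Col1a1 was detected on 1 ITNK array. Col4a1 read 7.44, 6.02, 6.75 and 7.10 on DN3 arrays, 5.41, 5.33, 5.57 and 5.36 on ITNK arrays and 4.35 to 4.51 on LAK arrays. The basement membrane chain fell by 1.41 (SE 0.22). For these 4 genes every DN3 array was above every ITNK array. Serpinh1, the chaperone that folds procollagen, was at 9.55, 7.76, 8.64 and 8.95 in DN3, 8.04, 7.48, 7.70 and 7.04 in ITNK and 4.59 to 4.94 in LAK. It fell by 1.16 (SE 0.30, adjusted p = 0.00465), and ITNK 1 lay above DN3 2.

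The proteoglycans did not keep step with each other. Bgn (biglycan) was at 11.28, 9.58, 10.14 and 11.04 in DN3, 9.24, 8.85, 9.20 and 8.65 in ITNK and 4.22 to 4.31 in LAK. It stayed far above background in ITNK and fell by 1.52 (SE 0.29, adjusted p = 0.000496). Prelp was at 8.64, 7.07, 7.74 and 8.19 in DN3, and at 4.48, 4.49, 4.93 and 4.88 in ITNK, where no array detected it. Read against background, it was 9.28-fold lower in ITNK, a direction fixed by its entry into the fit through DN3 arrays alone. It was undetected in LAK too, at 4.33 to 4.49. Across the alternatives described below, its ITNK difference from DN3 ran from -3.49 to -1.9 (log2). Sparc read 7.57, 6.32, 7.25 and 7.39 on DN3 arrays, 5.77, 4.80, 5.55 and 5.02 on ITNK arrays and 4.28 to 4.52 on LAK arrays. Fn1 read 6.69, 5.35, 6.10 and 6.19 on DN3 arrays, 5.34, 5.07, 4.87 and 4.75 on ITNK arrays and 4.23 to 4.30 on LAK arrays. Both are matrix glycoproteins, Fn1 being fibronectin, and both were higher on each DN3 array than on any ITNK array, falling in ITNK. Sparc fell by 1.85 and Fn1 fell by 1.08 (SE 0.25 and 0.22). Igfbp7 read 6.43, 5.81, 6.49 and 6.68 on DN3 arrays, 6.46, 5.97, 6.09 and 5.74 on ITNK arrays and 4.34 to 4.69 on LAK arrays. Its DN3 and ITNK arrays overlapped, all of them above LAK. Mgp (matrix Gla protein) differed by -0.08 (95% interval -0.49 to 0.32), Igfbp7, a secreted binder of growth factors, by -0.29 (-0.68 to 0.11) and Fstl1 (follistatin-like) by -0.50 (-1.14 to 0.14). Without DN3 2, Igfbp7 and Fstl1 fell by 0.47 and 0.76 (adjusted p = 0.0271 and 0.0372).

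Among signals and receptors, Cxcl12 was at 10.66, 8.64, 9.35 and 10.58 in DN3, 8.08, 7.31, 8.66 and 7.33 in ITNK and 4.31 to 4.43 in LAK. It fell by 1.96 (SE 0.39, adjusted p = 0.000816), although ITNK 3 reached the level of DN3 2. Its 2 other tested probes fell by 0.88 and 0.94. Pdgfra, a receptor that marks mesenchymal cells, was at 7.41, 5.83, 5.37 and 7.31 in DN3, 5.48, 5.15, 5.04 and 4.40 in ITNK and 4.33 to 4.44 in LAK. It fell by 1.46 (SE 0.38, adjusted p = 0.00508), with ITNK 1 above DN3 3. Vcam1 read 6.68, 5.56, 5.68 and 6.18 on DN3 arrays, 5.73, 4.87, 5.69 and 4.89 on ITNK arrays and 4.23 to 4.30 on LAK arrays. It fell by 0.73 (SE 0.24, adjusted p = 0.0216), with ITNK 1 and ITNK 3 among the DN3 values. It did not pass once the model held a slide term (adjusted p = 0.0736), in slide 2 alone (0.102), without ITNK 2, ITNK 4, DN3 1 or DN3 4 (adjusted p = 0.0717, 0.0711, 0.0731 and 0.0562) and with no detection filter (0.0863).

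Proteolysis genes moved apart. Mmp2, a gelatin-cutting metalloproteinase, was at 7.64, 6.01, 6.53 and 7.34 in DN3, 5.04, 4.63, 4.95 and 4.66 in ITNK and 4.26 to 4.40 in LAK. No ITNK or LAK array detected it. Read against background, it was 4.18-fold lower in ITNK than in DN3, a direction fixed by its entry into the fit through DN3 arrays alone. Timp3, the TIMP that binds to matrix, was at 5.56, 4.84, 5.79 and 5.23 in DN3, 7.18, 7.76, 7.56 and 7.78 in ITNK and 4.40 to 4.72 in LAK. The groups did not overlap, and it rose by 2.21 (SE 0.19, adjusted p = 3.69e-07), and by 2.31 within slide 2. Timp1 read 6.46, 5.25, 6.74 and 5.94 on DN3 arrays, 7.31, 6.80, 7.11 and 6.73 on ITNK arrays and 4.47 to 4.71 on LAK arrays. This secreted inhibitor rose by 0.89 (SE 0.25, adjusted p = 0.00789) and by 0.96 on its second probe, with ITNK 4 just below DN3 3. The Timp1 difference of 0.82 in a fit that blocked on slide did not pass (adjusted p = 0.0503), nor did that within slide 2 (0.82, adjusted p = 0.0963).

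Contractile and mechanically induced genes were split as well. Acta2, smooth muscle actin, was at 8.65, 8.14, 9.91 and 8.57 in DN3, 7.20, 7.14, 8.07 and 7.68 in ITNK and 4.27 to 4.68 in LAK. It fell by 1.30 (SE 0.30, adjusted p = 0.0026), by 0.95 within slide 2 (adjusted p = 0.0976), and by 1.01 on a second probe. Another Acta2 probe differed by 0.00 (adjusted p = 0.993). Ccn2, a matrix signalling protein induced by tension, was at 5.88, 5.77, 7.95 and 5.93 in DN3, 8.39, 8.39, 9.18 and 8.34 in ITNK and 4.48 to 4.72 in LAK. It rose by 2.19 (SE 0.38, adjusted p = 0.000242), by 2.72 without DN3 3, and by 1.08 on its second probe. All ITNK arrays lay above all DN3 arrays, of which DN3 3 came nearest.

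**Figure D2:**
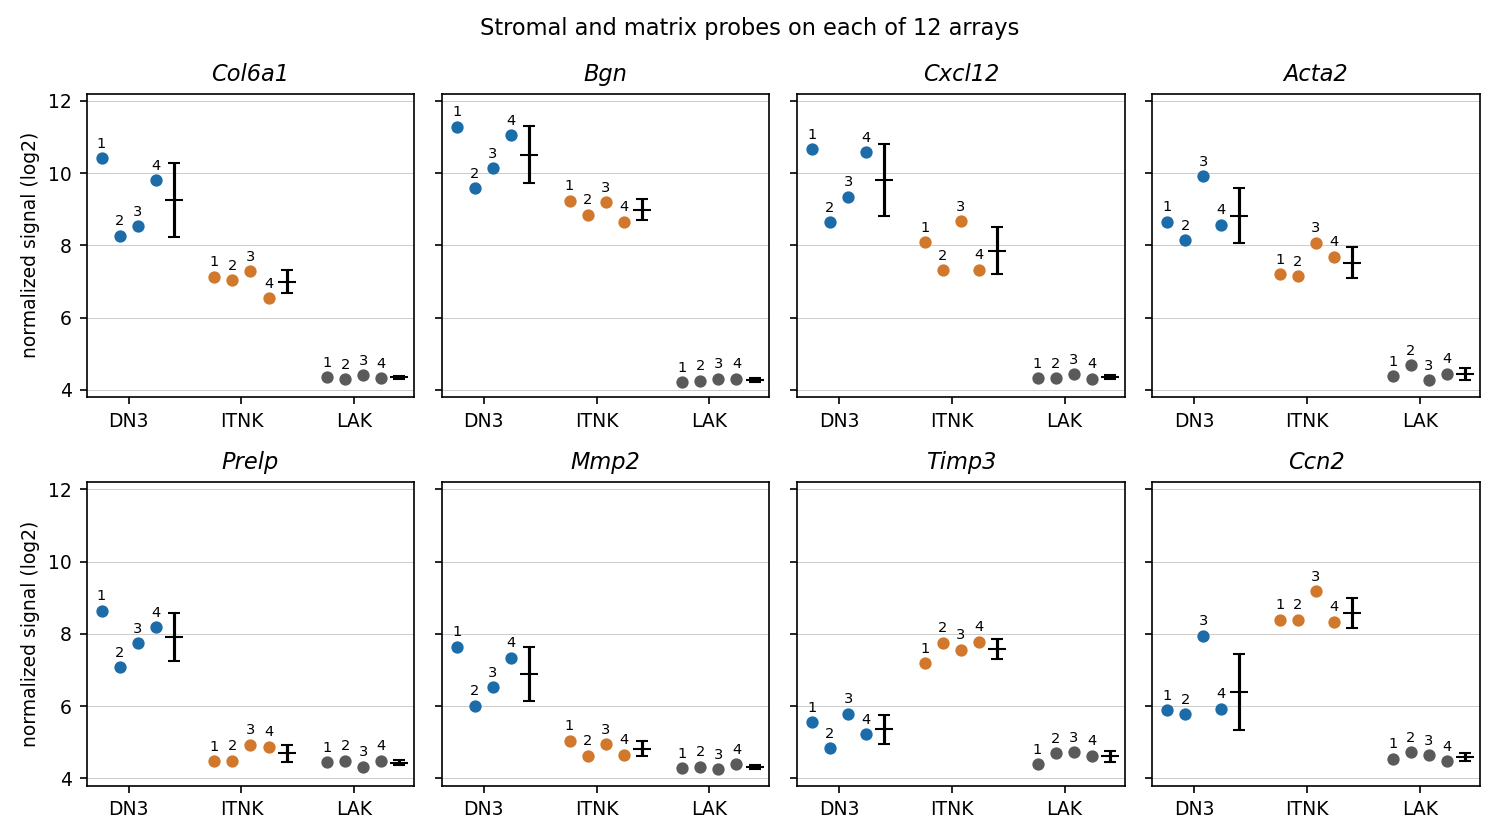
Normalized log2 signal (vertical axis) of 8 member genes on each array, grouped by population, with the replicate number beside each point and the mean with SD (n = 4) as a black bar. Col6a1, Bgn, Cxcl12 and Acta2 step down from DN3 to ITNK to LAK, Prelp and Mmp2 drop below detection in ITNK, and Timp3 and Ccn2 are highest in ITNK.

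LAK cells showed where background lies for these probes. In LAK against DN3 all 21 tested genes were lower (31.8% of all 8100 genes were lower and 28.6% higher) and 0 were higher (limma, and 0 without adjustment at the 0.05 level). None of the 21 met the filter through LAK arrays alone, so this count follows largely from the filter and is given as a description. Bgn was at least 71.7-fold lower in LAK than in DN3, Cxcl12 at least 43.3-fold, Col6a1 at least 29.4-fold and Acta2 at least 20.5-fold. Timp3 was at least 1.67-fold lower and Mgp at least 1.78-fold. No slide held both LAK and DN3. With slide as a block, 18 of the 21 passed, and Fstl1, Ccn2 and Timp3 did not (adjusted p = 0.0718, 0.114 and 0.212).

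Against LAK, which lay at background for nearly all of these probes, Bgn, Ccn2 and Cxcl12 were among the genes higher in ITNK. Of the 21 genes 16 were higher in ITNK (17.6% of all genes were) and 0 were lower (15.4% of all genes were; limma, and 0 without adjustment at the 0.05 level). The leading probes of 20 of the 21 were detected on no LAK array and entered the fit through ITNK and DN3 arrays, so the absence of lower calls follows largely from the filter and these counts are a description. Read against background, Bgn was 25.0-fold higher, Ccn2 15.8-fold, Cxcl12 11.1-fold, Acta2 8.32-fold and Timp3 7.76-fold. All LAK arrays lay below all ITNK arrays for these genes. The genes that did not pass were Col1a1, Col6a2, Prelp, Pdgfra and Mmp2, of which Prelp and Mmp2 were detected on no array of either group. For Mmp2 every ITNK array still lay above every LAK array. The shared estimate of spread includes the DN3 arrays. A limma fit of only ITNK and LAK called Pdgfra and Mmp2 higher in ITNK (adjusted p = 0.0307 and 0.00923). The calls of 3 faint genes rested on single arrays or on the slide. Fstl1 lost its call without LAK 4, ITNK 1 or ITNK 3 (adjusted p = 0.0597, 0.0729 and 0.0861), and Sparc and Fn1 without ITNK 1 (0.0562 and 0.0517). With slide as a block 14 were higher, without Sparc and Fstl1 (adjusted p = 0.0666 and 0.115), and within slide 1, where ITNK has 2 arrays, 18 were.

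**Figure D3:**
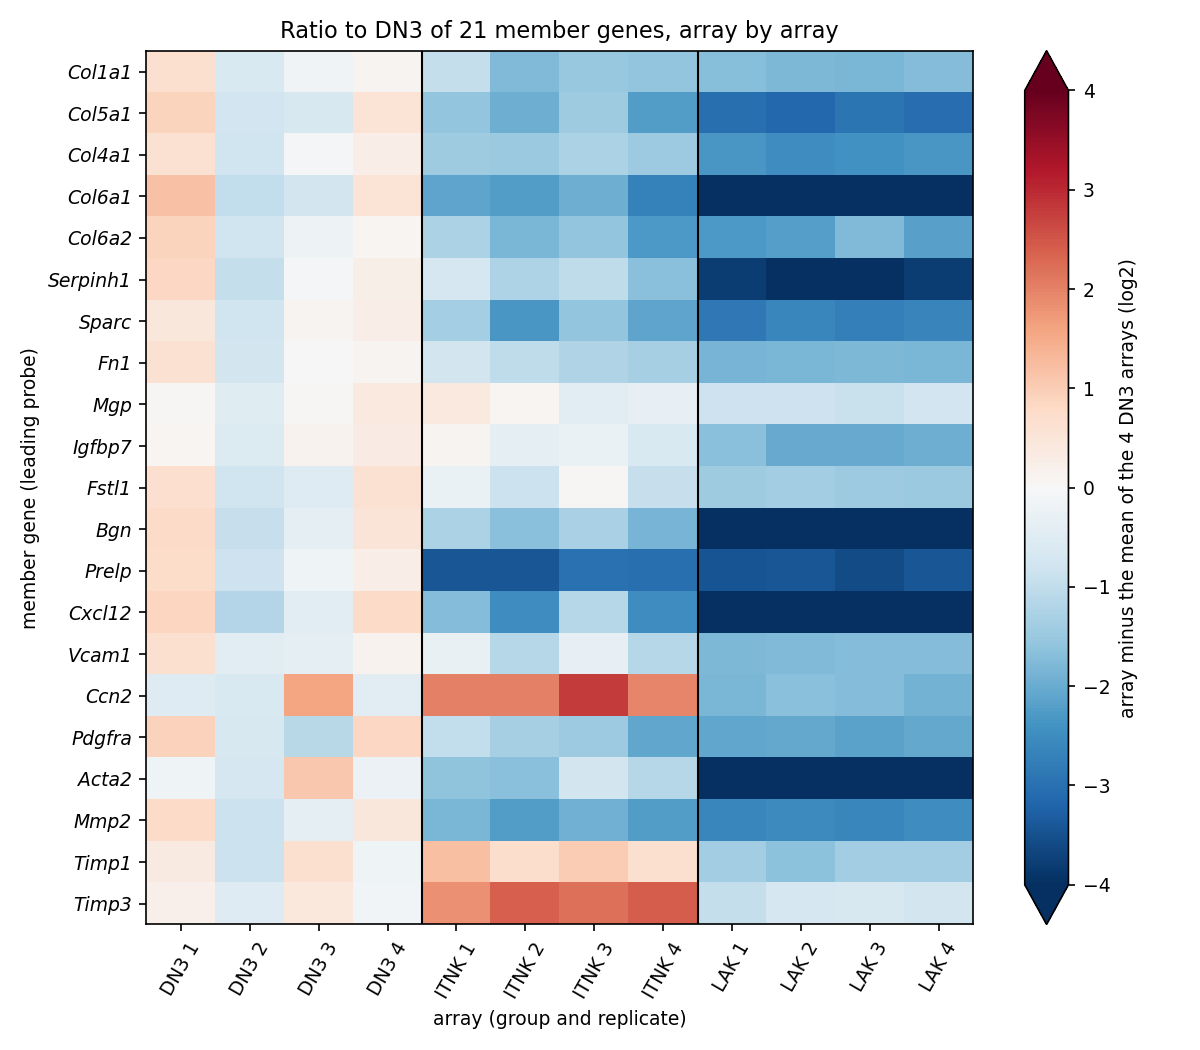
Each tested member gene (rows) on each array (columns) as its log2 value minus the mean of the 4 DN3 arrays. Colours saturate at 4 in either direction. ITNK columns are blue for the collagens and red for Ccn2, Timp1 and Timp3, and LAK columns are blue throughout.

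Array by array, the ratios to DN3 were uneven between genes. Between ITNK arrays they varied less than the members did between DN3 arrays. They still varied more than all genes did (median SD 0.37 against 0.18). The median over the 21 genes of each ITNK array's log2 ratio to the DN3 mean was -1.0, -1.50, -1.21 and -1.59 for ITNK 1 to 4, and 16, 17, 17 and 18 genes were below the DN3 mean. Within a single ITNK array the ratios spread from -3.43 to 2.01 (ITNK 1), from -3.42 to 2.41 (ITNK 2), from -2.98 to 2.80 (ITNK 3) and from -3.03 to 2.42 (ITNK 4). The low end is Prelp, which no ITNK array detected, so that ratio was read against background. The medians of the LAK arrays lay between -2.30 and -2.14. The same medians over all 8100 genes were -0.05 to -0.02 on the ITNK and LAK arrays.

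The steadiest ratio was that of Col4a1, at -1.42, -1.50, -1.25 and -1.47 on ITNK 1 to 4. The least steady was that of Cxcl12, at -1.73, -2.50, -1.15 and -2.47. The higher pair, ITNK 1 and ITNK 3, lay on different slides. ITNK 1 was the highest ITNK array in 12 of the 21 genes and ITNK 3 in 8, beside 24.3% and 25.7% of all genes. ITNK 4 was the lowest in 11 and ITNK 2 in 7, beside 25.5% and 25.3%.

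The DN3 arrays differed more from each other than the ITNK arrays did. The SD between DN3 arrays had a median of 0.70 over the 21 genes, against 0.15 over all genes, and in ITNK these medians were 0.37 and 0.18. From lowest to highest DN3 array the normalized level changed 1.82-fold (Igfbp7) to 4.55-fold (Ccn2). DN3 2 was the lowest DN3 array in 20 of the 21 genes (22.2% of all genes), and Pdgfra, lowest on DN3 3, was the exception. DN3 1 was the highest in 15 (26.4% of all genes). Against the mean of the other 3 DN3 arrays, the median over the genes was 0.87 for DN3 1, -1.04 for DN3 2, -0.20 for DN3 3 and 0.37 for DN3 4. Over all genes these medians were -0.01 to 0.01.

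DN3 3 was high for some members and low for others. It was the highest DN3 array in 4 of the 21 genes, no more often than over all genes (27.6%). These were Ccn2, Acta2, Timp1 and Timp3, which include all 3 members that rose in ITNK. DN3 3 stood 2.10 above the mean of the other DN3 arrays for Ccn2 and 1.46 for Acta2, and 1.48 below it for Pdgfra and 0.97 below it for Col6a1. The second probes of Ccn2 and Acta2 were also highest there, at 5.56 and 7.61 beside at most 4.90 and 6.62 on the other DN3 arrays. Dcn, detected nowhere else, read 7.06 on DN3 3 by 1 of its 4 probes and 4.40 to 4.57 on the other DN3 arrays. Other genes were read on the same DN3 arrays. Coro1a was at 12.90, 13.04, 12.99 and 13.05 on DN3 1 to 4 and Laptm5, a leukocyte lysosomal protein, at 13.31, 13.42, 13.54 and 13.51, and the arrays detected 11964, 12364, 12171 and 12595 probes. The median of 5 natural killer genes, each taken against its mean over all 12 arrays, was -3.44, -2.66, -2.48 and -3.41 on DN3 1 to 4 (log2). It was higher on DN3 2 and DN3 3 than on DN3 1 and DN3 4. Members below the mean of the other DN3 arrays numbered 2, 21, 13 and 4 on DN3 1 to 4. The part of natural killer RNA in the members' values was not tested.

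**Figure D4:**
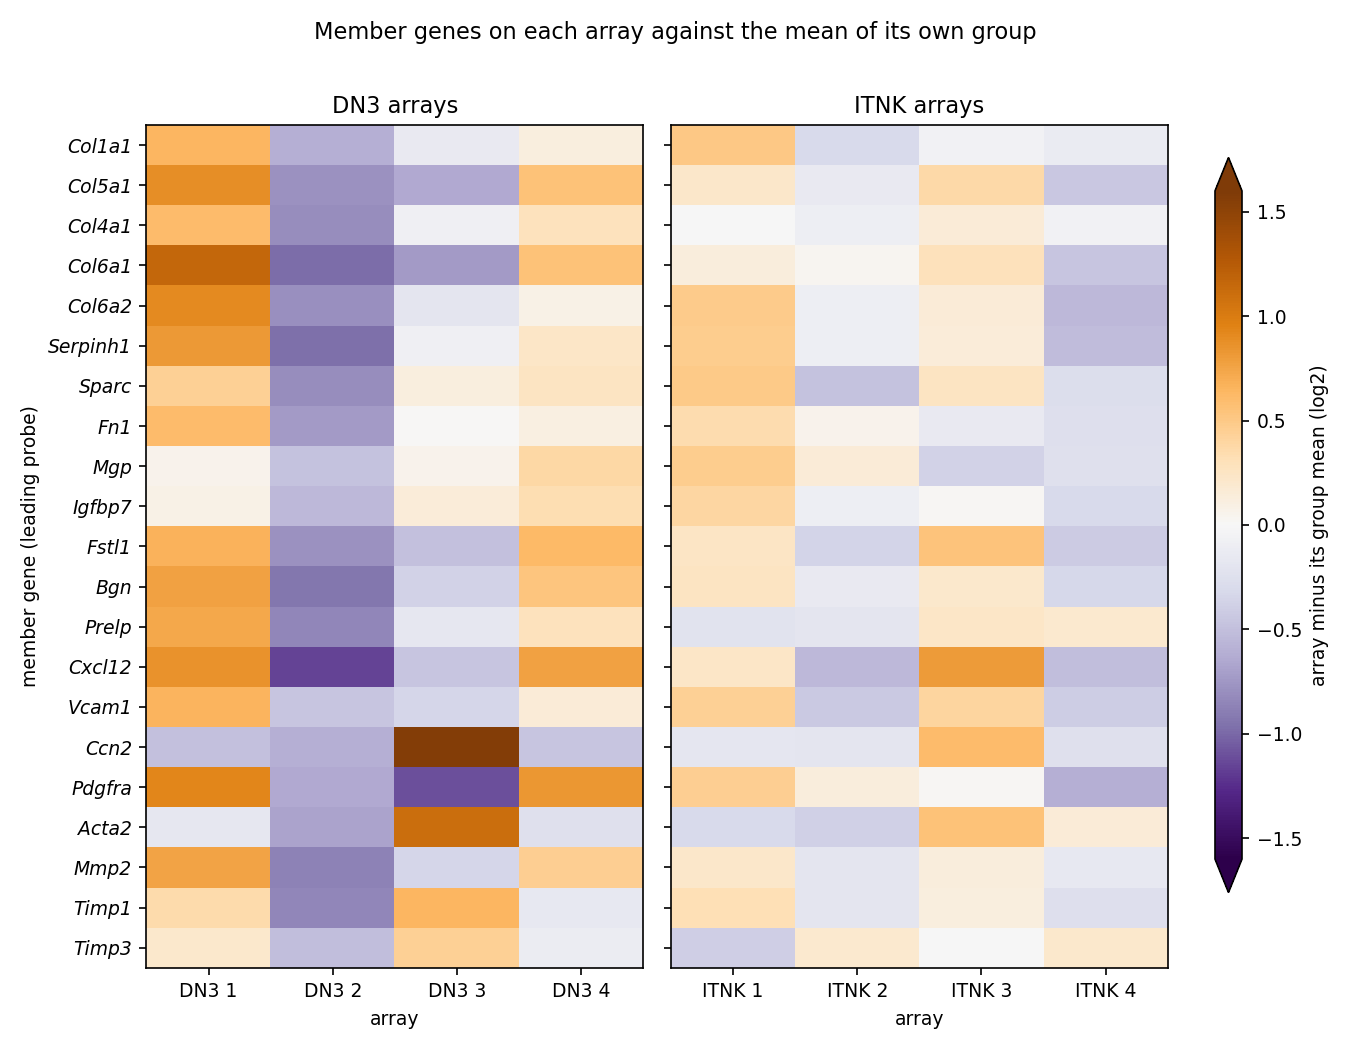
Each tested member gene on each DN3 array (left) and ITNK array (right) as its log2 value minus the mean of its own group. DN3 2 is purple (low) for all 21 genes, DN3 1 orange (high) for most, and DN3 3 is high for Ccn2 and Acta2 and low for Pdgfra and Col6a1.

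Other genes of stromal cells, from lists of genes not in the member set, were looked at in the same fit. Of 40 matrix assembly genes (further collagens, cross-linking enzymes and matrix proteins) 16 were tested. In ITNK against DN3, 9 of them fell and 0 rose (limma), beside 27.9% and 23.3% of all genes, with a median of -0.52. Lox, the enzyme that cross-links collagen, fell by 1.80 (SE 0.26, adjusted p = 5.59e-05), Serpinf1, a secreted stromal serpin, by 1.46 and Pcolce, an enhancer of procollagen processing, by 1.42. DN3 2 was the lowest DN3 array in 12 of these 16 genes (22.2% of all genes) and DN3 1 the highest in 9 (26.4%). In LAK against DN3, 12 of the 16 were lower and 2 higher, beside 31.8% and 28.6% of all genes. No LAK array detected 10 of those 12, which entered the fit without LAK.

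Stromal support genes went both ways, as all genes did. Of 24 such genes 10 were tested, and the median in ITNK against DN3 was -0.15. In ITNK 4 fell and 4 rose, beside 27.9% and 23.3% of all genes. Among those that fell, Bmp4 and Gas6 met the detection filter through DN3 arrays alone and so had to be lower in ITNK. Among those that rose, the chemokine Ccl2 met it through ITNK arrays alone and so had to be higher. The calls of these genes are a description. The growth factors Bmp4 and Gas6 were detected on all DN3 and no ITNK arrays and fell by 1.89 and 1.85 (SE 0.24 and 0.26), as read against background. Nt5e (the ectonucleotidase CD73), which lymphocytes also carry, rose by 3.28 (SE 0.25, adjusted p = 1.14e-07). Of 17 contractile and mechanical response genes 10 were tested, 4 rose and 4 fell, beside 23.3% and 27.9% of all genes. Lmna (lamin A) rose by 3.36, and Actn1 (alpha-actinin) and Vcl (vinculin) fell by 2.25 and 0.96. Lmna and Vcl were also detected on all LAK arrays. Of 10 adipocyte genes 3 were tested. Among them Lpl met the detection filter through DN3 arrays alone, so its direction was fixed and its call is a description. Lpl (lipoprotein lipase), detected on no ITNK array, fell by 2.07. The nuclear receptor Pparg fell by 1.71, and Scd1, a fatty acid desaturase, differed by 0.21 (adjusted p = 0.578). In these 3 lists the pattern of the DN3 arrays was mixed. DN3 2 was the lowest in 3 of 10 stromal support, 5 of 10 contractile and 1 of 3 adipocyte genes. DN3 3 was the lowest in 4, 2 and 2 of them, and DN3 1 the highest in 7, 3 and 3.

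Markers of other cell types were looked at on the same arrays. None of 4 platelet and megakaryocyte genes and none of 5 thymic epithelial genes with a probe entered the fit. Of 5 endothelial genes only Pecam1 did (DN3 7.09 ± 0.16, ITNK 5.67 ± 0.42, LAK 7.97 ± 0.46, mean and SD of 4 arrays), and of 4 myeloid genes with a probe only Csf1r (DN3 5.29 ± 0.12, ITNK 5.19 ± 0.17, LAK 5.02 ± 0.08). Pecam1 fell in ITNK against DN3 and was higher in LAK than in DN3, and Csf1r did not pass in ITNK against DN3 and was lower in LAK than in DN3. Of 3 B cell genes with a probe Cd79b was tested (DN3 6.89 ± 0.19, ITNK 6.39 ± 0.20, LAK 4.44 ± 0.08). It fell in ITNK against DN3 by 0.50 (SE 0.12, adjusted p = 0.00343) and was detected on no LAK array, the same order of groups as for most members. Of 2 erythroid genes with a probe Hba-a1, a haemoglobin chain, was tested (DN3 5.64 ± 0.18, ITNK 8.56 ± 0.45, LAK 5.03 ± 0.37). It rose in ITNK by 2.91 against DN3 (SE 0.21, adjusted p = 9.56e-08) and was 3.52 higher than in LAK. The part of B cell, erythroid and endothelial RNA in the members' differences was not tested. Nor was that of stromal cells carried over from culture.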

How the data were processed

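RNA of 12 samples was amplified to biotin-labelled cRNA and hybridised to Illumina bead arrays, per the labels' protocols. Per the file headers, the authors deposited each probe's average bead intensity (linear, not normalized across arrays) and a detection value, a fraction from 0 to 1 from which the detection p is 1 minus the value. They also deposited processed values that lie on a log2 scale, whose method is not given in the sources used here and which served as an alternative. Scanner software is not given there either.

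Background was removed with a normal-exponential model informed by the detection values, and intensities were given an offset of 16 and quantile normalized (neqc, limma 3.58.1, R 4.3.3). Of 45281 probes 7 had no values. The platform annotation gave 1 symbol to 34880 of the rest, several to 18 and none to 10376, and symbols were updated by Entrez number (34802 of 34898 annotated probes matched). Probes with a detection p under 0.01 on at least 4 arrays (13571, for 8100 genes) entered 1 linear model of 3 groups with moderated 2-sided tests, Benjamini-Hochberg adjustment over all probes and a threshold of 0.05. A gene was called by its probe of highest mean over all arrays. Where no array of the dimmer group detected a probe, the fold was read against background. It set the brighter group's mean against, per array, the higher of the lowest normalized value of any detected probe and the probe's own value. Some undetected probes lay above that lowest value, so the fold is not a strict bound. The number of arrays limits the precision. The code was tested on simulated data.

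Members and gene lists were chosen with earlier results of these data known. All members are accounted for, with every array's value (for LAK the range) for members detected on all 4 arrays of a group, and from each further list up to 3 called genes of largest difference are named. The RefSeq promoter table supplied the sequences. Alternatives covered background correction, scaling, the deposited log2 values, filters, slide, replicate number, and each array left out.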

Additional observations from a re-analysis of the deposited data

Results flagged for a closer look

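Each member gene was examined in every group where at least 1 array detected it (46 groups of 4 arrays), for an array whose gap to its nearest neighbour took more of the group's range than Dixon's 95% critical value allows for 4 samples. Chance flags about 1 in 20 groups, and 4 were found. Ccn2 stood out on DN3 3, at 7.95 beside 5.93 for the next array, and on ITNK 3, at 9.18 beside 8.39. Dcn stood out on DN3 3, at 7.06 beside 4.57. Tpm2 stood out on ITNK 4, at 5.01 beside 4.59, which was its only detection among ITNK arrays.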

How the results depend on the processing

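The direction of all called members held under every alternative run, and counts of members called stayed within 1.5 times their value except as given here. Median differences shrank under other background handling. For ITNK against LAK and LAK against DN3 they were 0.66 and -1.29 without background correction, and 0.65 and -1.29 with a fit to all probes. With the authors' log2 values the medians were -0.77 (ITNK against DN3), 0.63 (ITNK over LAK) and -1.23 (LAK over DN3), and Col5a1, Sparc and Fstl1 missed the threshold in ITNK against LAK. With no detection filter, which tests 34 members, medians were -0.58 (ITNK against DN3) and 0.56 (ITNK against LAK), and 1 member was called higher in LAK against DN3. Median scaling changed no member's call. Of all probes, 6745, 4307 and 8085 passed in ITNK against DN3, ITNK against LAK and LAK against DN3, and 4184, 2727 and 4903 with 1 probe per gene, which tests fewer features. With probes detected on all 12 arrays 2705 passed in ITNK against LAK, and 0 members were left to test. Fitting only the compared groups added Pdgfra and Mmp2 to ITNK against LAK. Leaving out 1 array at a time gave 14 to 17 members lower and 3 higher in ITNK against DN3 (median -1.66 to -1.20), 13 to 16 higher in ITNK against LAK and 21 lower in LAK against DN3. Whether samples with the same replicate number share a mouse or culture is not stated. Deviations of 12 same-numbered pairs correlated at -0.32 to 0.20, 3 of them over 0.1, which cannot decide it. A replicate block left 6487, 3992 and 7869 probes called and changed no member's call. Counting a gene as detected on any array of its group gave 20 members in ITNK and 3 in LAK, and a detection p under 0.05 gave 1 in LAK. Signals near background limit Mgp, Fstl1, Fn1, Vcam1 and Sparc.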
